A study of Mus musculus with 4 samples.

Results

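The 10 genes studied here steer cell fate in the intestinal crypt, and their signal was followed in laser-captured Paneth cells of conventionalized and germ-free mice. The genes were Atoh1, Gfi1, Spdef, Hes1, Klf4, Cdx1, Cdx2, Bhlha15, Notch1 and Neurog3, chosen by name as the main regulators of the secretory lineages and of intestinal identity, and taken as every probe set that the platform annotation gave to 1 of them. They are 10 of 18193 genes named on the array and had 15 of its 45101 probe sets, none of which named a further gene. Gfi1, Spdef, Hes1, Cdx1 and Atoh1 had 1 probe set each, and the other 5 genes had 2. Per gene, the probe set with the highest mean over the 4 arrays stands for the gene, and the dimmer one is given beside it.

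Paneth cells, the granule-filled antimicrobial cells at the crypt base, came from male NMRI mice aged 8 weeks. The conventionalized mice had been germ-free and were then colonized for 10 days with intestinal microbes taken from a normally housed donor mouse, and the germ-free mice stayed without microbes. Each group was a single equal-part mix of RNA from 3 mice. From either mix, 2 portions of 10 ng were amplified separately and hybridised to an Affymetrix Mouse430_2 array each, so that 2 conventionalized arrays are set against 2 germ-free arrays. Arrays of a group are repeat amplifications of 1 pool. Every p-value therefore measures amplification and array error, and the spread between mice is not in it.

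New epithelial cells of the crypt choose between an absorptive and a secretory fate through Notch signalling. A cell whose Notch receptor is engaged makes Hes1, a repressor that silences Atoh1, and becomes absorptive. A cell that escapes Notch keeps Atoh1, the helix-loop-helix factor needed for Paneth, goblet and enteroendocrine cells alike, and later factors such as Gfi1, Spdef, Bhlha15 and Neurog3 decide and complete the secretory fate. Cdx1 and Cdx2, homeobox factors, keep the epithelium intestinal in both branches.

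The captured material carried Paneth cell products at high signal. Lyz1, the Paneth cell lysozyme, read 80185 and 249594 on the conventionalized arrays and 24112 and 51494 on the germ-free arrays. Goblet and enterocyte products were also present, with Tff3, a goblet cell peptide, at 15855 and 16667 in conventionalized and 10936 and 19011 in germ-free cells, and Fabp2, a fatty acid binding protein of enterocytes, at 51528 and 142558 in conventionalized and 20981 and 45252 in germ-free cells. Fabp2 lay higher in conventionalized cells, while 11 of the 14 enterocyte markers tested lay lower. Conventionalized replicate 2 stood apart from the other arrays. Its Pearson correlation with them over 22491 probe sets, which are not independent replicates, was 0.754 to 0.779, against 0.855 to 0.890 among the other 3 arrays. Values without that array stand beside the results it moves most, and the ranges over leaving out any 1 array beside the list medians. Fluidics station 2 handled the conventionalized pair and station 1 the germ-free pair, and these cannot be told apart from the groups.

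None of the 10 regulators differed between the groups beyond the test's threshold. The comparison asked how colonization bears on gene expression in Paneth cells. Signals were turned into log2(signal + 32), and limma was fitted to the 22491 probe sets whose mean signal exceeded the overall median of 113.9. Calls required an adjusted p under 0.05 (Benjamini-Hochberg, over all 22491). All 10 genes passed that filter with their brighter probe set. Called genes among them numbered 0 of 10, while 0.333% of all probe sets tested were called, 0.12% higher and 0.213% lower in conventionalized cells. Levels of different probe sets are not comparable between genes, since each probe set has its own brightness. At an unadjusted p under 0.05 there was 1 of 10, Klf4, and 5.13% of all probe sets tested. The 10 log2 differences, conventionalized minus germ-free, ran from -1.24 to 0.60 with a median of -0.43, while all probe sets tested had a median of 0.00. In 7 genes the difference was below 0 and in 3 above it, and 49.8% of all probe sets tested lay below 0. Without conventionalized replicate 2 the median of the 10 genes was -0.07. A permutation of 4 arrays could not give a two-sided p below 0.333. Fitted standard errors for the 10 genes lay between 0.42 and 1.12 on the log2 scale and are those of probe sets of like signal. In RNA pooled from many captured cells, fewer cells that make a transcript and less transcript per cell cannot be told apart.

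**Figure D1:**
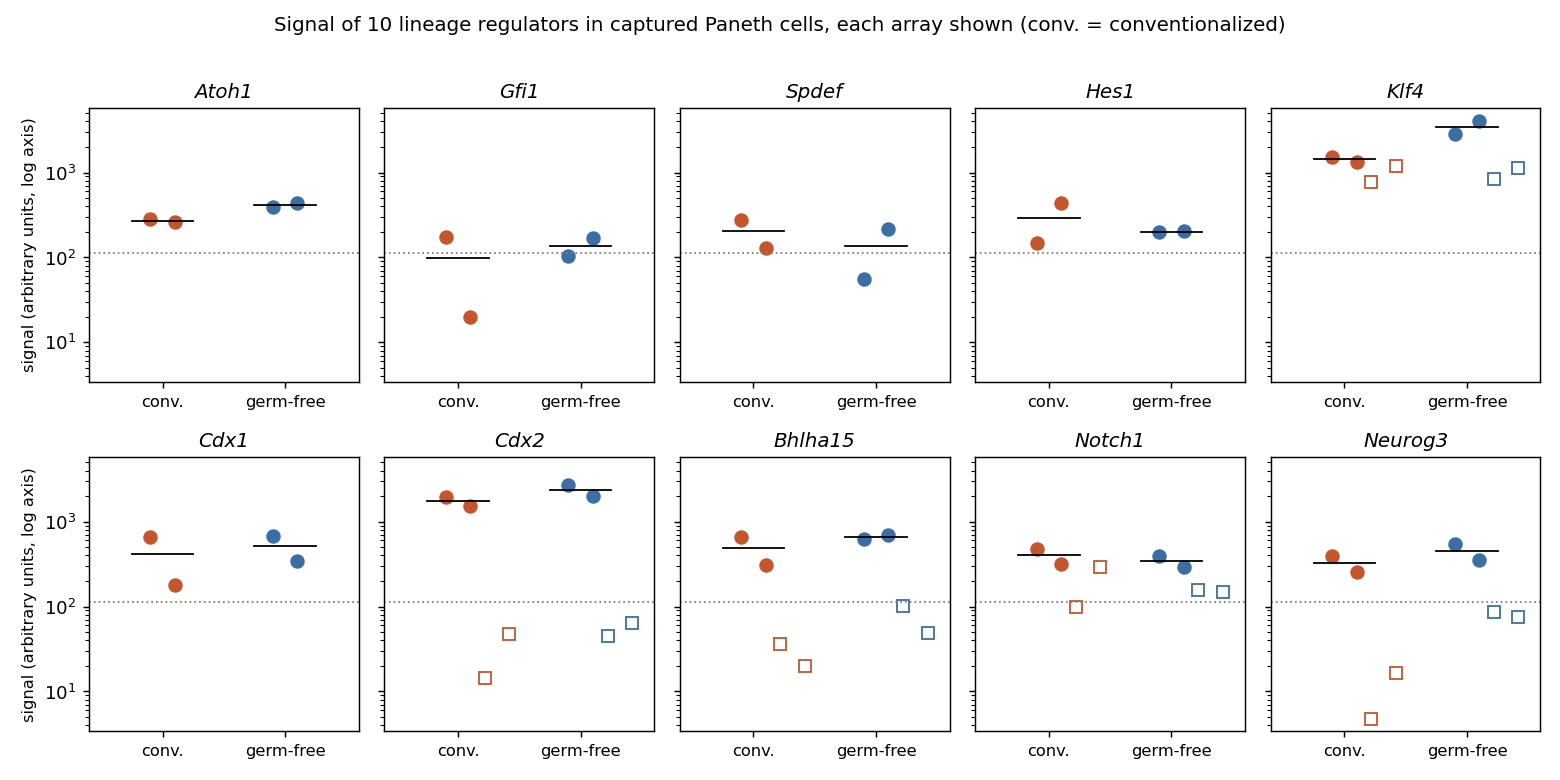
Signal of each regulator on every array, on a log axis in arbitrary units, with conventionalized arrays left of germ-free arrays. Filled circles are the brighter probe set with a line at each group's mean, open squares the dimmer probe set, and the dotted line is the filter at a mean signal of 113.9. The groups do not overlap in Atoh1, Klf4 and Cdx2, and in Gfi1 a single conventionalized array at 19.9 lies far below the other 3.

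Klf4, a zinc finger factor of maturing goblet cells and other differentiated epithelium, had signals of 1545 and 1322 in conventionalized cells and 2881 and 4075 in germ-free cells. Both conventionalized arrays lay below both germ-free arrays. The log2 difference was -1.24 ± 0.42 (SE, n = 2 arrays per group), or 2.37-fold lower, with a 95% interval from -2.08 to -0.41, and was not called (limma adjusted p = 0.328, unadjusted p = 0.0034). With any 1 array left out the difference lay between -1.49 and -0.995. The dimmer Klf4 probe set gave another account. Its signals were 775 and 1208 in conventionalized and 848 and 1117 in germ-free cells, which overlap, and its log2 difference was -0.01 ± 0.42 (limma adjusted p = 1.00). On each array the log2 ratio of the brighter over the dimmer Klf4 probe set was 0.97 and 0.13 in conventionalized cells and 1.73 and 1.84 in germ-free cells. This ratio differed by -1.24 between the groups, which restates the 2 differences above, since that of the dimmer probe set lay near 0. What sets the 2 probe sets apart was not tested.

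Atoh1 had signals of 284 and 259 in conventionalized cells and 388 and 434 in germ-free cells. Its groups did not overlap, and its duplicates lay closer together than those of most of the 10 genes, with gaps of 0.12 in conventionalized and 0.15 in germ-free cells on the log2 scale. The log2 difference was -0.54 ± 0.51 (SE, n = 2 arrays per group), with a 95% interval from -1.55 to 0.46 (limma adjusted p = 0.999). With any 1 array left out it stayed between -0.62 and -0.47. The standard error here is borrowed from probe sets of like signal and is wider than the gaps between the Atoh1 duplicates.

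Cdx2, the homeobox factor that sets intestinal identity, read 1930 and 1543 in conventionalized cells and 2675 and 2029 in germ-free cells at its brighter probe set. The groups did not overlap, although the higher conventionalized array came close to the lower germ-free one. The log2 difference was -0.43 ± 0.42 (limma adjusted p = 0.999), with a 95% interval from -1.25 to 0.40. A dimmer Cdx2 probe set lay under the filter, with 14.3 and 46.9 in conventionalized and 44.8 and 64.7 in germ-free cells.

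Klf4, Atoh1 and Cdx2 were the 3 genes of 10 whose groups did not overlap, each with the conventionalized arrays lower. Among all probe sets tested, 31.1% had groups that did not overlap, 15.3% with the conventionalized arrays lower and 15.8% with them higher. The promoters of these 3 genes are shown because all 3 lay lower, as the 250 bases before the transcript start in RefSeq on build GRCm38.p6, with E-boxes in capitals. An E-box, CANNTG, is the sequence that helix-loop-helix activators such as Atoh1, Bhlha15 and Neurog3 bind with their partners. Klf4 lies on the minus strand at chr4:55532476-55532725, Atoh1 on the plus strand at chr6:64728875-64729124, and Cdx2 on the minus strand at chr5:147307250-147307499.
Klf4: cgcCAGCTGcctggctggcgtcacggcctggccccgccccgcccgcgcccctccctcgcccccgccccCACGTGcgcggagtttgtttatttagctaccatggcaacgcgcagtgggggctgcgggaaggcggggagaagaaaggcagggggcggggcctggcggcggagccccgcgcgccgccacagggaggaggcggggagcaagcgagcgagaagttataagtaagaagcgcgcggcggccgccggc
Atoh1: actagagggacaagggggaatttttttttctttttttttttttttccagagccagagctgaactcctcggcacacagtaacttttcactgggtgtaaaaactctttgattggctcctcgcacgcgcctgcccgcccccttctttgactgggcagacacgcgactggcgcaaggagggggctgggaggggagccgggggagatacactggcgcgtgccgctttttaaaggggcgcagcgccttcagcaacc
Cdx2: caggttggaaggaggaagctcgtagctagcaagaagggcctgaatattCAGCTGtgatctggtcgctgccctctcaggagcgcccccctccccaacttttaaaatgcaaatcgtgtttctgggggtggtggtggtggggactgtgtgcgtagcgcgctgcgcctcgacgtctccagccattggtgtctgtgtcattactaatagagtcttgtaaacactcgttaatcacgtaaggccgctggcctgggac

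The Klf4 window held 2 E-boxes, starting 247 and 182 bases before the transcript start, and the Cdx2 window held 1, starting 202 bases before it. The Atoh1 window held 0. RefSeq promoters were at hand for 8 of the 10 genes, all but Hes1 and Cdx1, and for Gfi1 the first of 2 entries was read. Over these 8 windows, read on both strands, E-boxes occurred in 5, and 66.2% of all 32851 windows of this length held one. CACNAG, the N-box that Hes1 binds, occurred in 1 of the 8, that of Notch1, and in 36.7% of all windows. TGGGAA, the core that Rbpj binds in the Notch complex, also occurred in 1, that of Spdef, and in 21.6% of all windows. TTTAT, the Cdx core, occurred in 3 windows of the 8 against 37.3% of all, and CACCC, a Klf core, in 6 against 52.0%. No base of the 8 windows lay in matches to more than 1 of these motifs. A match is a run of letters and no measured binding.

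Among the factors that act after Atoh1, Gfi1, a zinc finger repressor that holds the Paneth and goblet path against the enteroendocrine one, had signals of 176 and 19.9 in conventionalized cells and 105 and 172 in germ-free cells. The conventionalized duplicates lay on either side of the germ-free ones, and their gap of 2.00 on the log2 scale exceeded the group difference of -0.69 ± 1.12 (limma adjusted p = 0.999). Without conventionalized replicate 2 the Gfi1 difference was 0.31. Its 95% interval, from -2.88 to 1.51, leaves room for a several-fold change either way.

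Spdef, the Ets factor of goblet and Paneth cell maturation, read 276 and 131 in conventionalized cells and 55.5 and 219 in germ-free cells. The groups overlapped, and the germ-free gap of 1.52 was wider than the difference of 0.60 ± 0.77 (limma adjusted p = 0.999). The difference was 1.05 without conventionalized replicate 2 and -0.16 without germ-free replicate 1. Bhlha15, also called MIST1, a factor that enlarges the secretory machinery of Paneth and other exocrine cells, had signals of 665 and 312 in conventionalized cells and 627 and 691 in germ-free cells. Here 1 conventionalized array matched the germ-free level and the other lay lower. The difference was -0.49 ± 0.45 (limma adjusted p = 0.999), and 0.01 without conventionalized replicate 2. At its dimmer probe set, under the filter, Bhlha15 read 36.3 and 20 in conventionalized and 100.5 and 49 in germ-free cells, which do not overlap.

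Neurog3, the helix-loop-helix factor of enteroendocrine progenitors, read 392 and 258 in conventionalized cells and 546 and 349 in germ-free cells at its brighter probe set. Those groups overlapped, and the difference was -0.42 ± 0.49 (limma adjusted p = 0.999), or -0.14 without conventionalized replicate 2. Its dimmer probe set lay under the filter, with 4.8 and 16.4 in conventionalized and 87.4 and 76.1 in germ-free cells. On the dimmer probe set the groups stood clearly apart, but at signals where the pseudocount of 32 shapes any fold, and it was not tested.

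Hes1, the repressor that Notch switches on, had signals of 147 and 443 in conventionalized cells and 200 and 203 in germ-free cells. The germ-free duplicates were nearly equal, with a log2 gap of 0.02, and the conventionalized ones lay 1.41 apart and on either side of them. The difference of 0.32 ± 0.59 (limma adjusted p = 0.999) was -0.38 without conventionalized replicate 2. Notch1, a receptor upstream of Hes1, read 480 and 320 in conventionalized cells and 398 and 293 in germ-free cells, a difference of 0.18 ± 0.50 (limma adjusted p = 0.999). Its dimmer probe set read 97.6 and 290 in conventionalized and 158 and 149 in germ-free cells, a difference of 0.14 ± 0.73. Both Notch1 probe sets overlapped between the groups.

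Cdx1, the close relative of Cdx2, read 652 and 179 in conventionalized cells and 684 and 341 in germ-free cells. Each group held a high and a low array, and the gaps of 1.69 in conventionalized and 0.94 in germ-free cells exceeded the difference of -0.44 ± 0.48 (limma adjusted p = 0.999). The Cdx1 difference was 0.41 without conventionalized replicate 2 and -1.29 without conventionalized replicate 1.

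Duplicate error set the limit on these readings. In 7 of the 10 genes the gap between duplicates of at least 1 group was larger than the difference between the groups, and the exceptions were Klf4, Atoh1 and Cdx2. Overlap of the groups entails such a gap, and only 31.1% of all probe sets tested did not overlap. The count of 7 therefore does not set these genes apart from the array. The median gap over the 10 genes was 0.73 in conventionalized and 0.45 in germ-free cells on the log2 scale, beside 0.62 and 0.54 over all probe sets tested. Leaving out 1 array at a time turned the sign of the difference in 6 genes, and in the other 4, Klf4, Atoh1, Cdx2 and Neurog3, it stayed below 0. How often the sign turned over all probe sets was not counted.

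**Figure D2:**
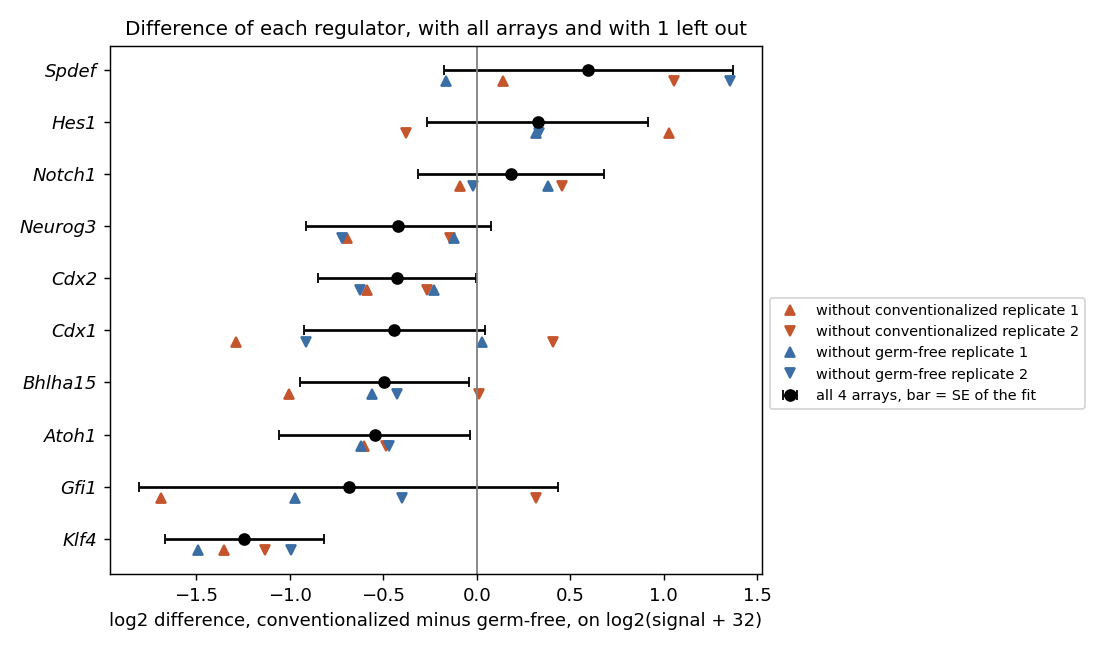
Log2 difference of each regulator, conventionalized minus germ-free, on the log2(signal + 32) scale. Black points with bars are the fit to all 4 arrays with its SE, and triangles are fits with 1 array left out. Klf4 at -1.24 lies farthest from 0, and the triangles of Gfi1, Hes1, Cdx1, Spdef, Notch1 and Bhlha15 fall on both sides of 0.

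The partners, relatives and targets of these regulators were read from 8 gene lists. Of 118 distinct genes listed, 108 had a probe set of their own and 85 passed the filter. Called genes numbered 0 of 85, against 0.333% of all probe sets. At an unadjusted limma p under 0.05 there were 11 of 85, a larger share than the 5.13% of all probe sets tested. The lists were chosen with earlier results of these data known. The groups did not overlap in 12 genes that lay higher and 14 that lay lower in conventionalized cells. Over all probe sets tested these shares were 15.8% and 15.3%, so the counts of genes without overlap are near the background.

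Of 29 Notch receptors, ligands and processing proteins, 23 were tested, 11 with a difference above 0 and 12 below it, and their median was -0.0043, or -0.065 to 0.097 with 1 array left out. Dll1, a ligand that secretory cells show to their neighbours, read 348 and 272 in conventionalized and 275 and 304 in germ-free cells. Dll4, the other ligand of secretory cells, read 160 and 99.9 in conventionalized and 203 and 46.4 in germ-free cells. Both ligands overlapped between the groups, as did Rbpj, the DNA-binding partner of the cleaved receptor, at 793 and 348 in conventionalized and 553 and 617 in germ-free cells. Psenen and Aph1a, subunits of the gamma-secretase that cleaves Notch, differed by -0.01 ± 0.43 and -0.27 ± 0.42. Mib1, a ubiquitin ligase that makes Notch ligands active, was picked out after its values were seen, with 217 and 264 in conventionalized and 608 and 540 in germ-free cells, a difference of -1.16 ± 0.49 that was not called (limma adjusted p = 0.758).

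Among 20 genes of the Hes, Hey and Id repressors and their cofactors, 13 were tested, with a median of -0.09, or -0.21 to 0.039 with 1 array left out. Hes6, a relative of Hes1 found in secretory precursors, read 1145 and 1657 in conventionalized and 708 and 974 in germ-free cells. Its groups did not overlap, and the difference of 0.71 ± 0.42 was not called (limma adjusted p = 0.999). Tle1, a corepressor recruited by Hes proteins, differed by 0.48 ± 0.42. Id2, which blocks helix-loop-helix activators, was picked out after its values were seen. It read 200 and 29.8 in conventionalized and 392 and 647 in germ-free cells, a difference of -2.16 ± 0.60 (limma adjusted p = 0.069), or -1.21 without conventionalized replicate 2. Without conventionalized replicate 1 it was called at -3.12 (limma adjusted p = 0.0015).

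Of 25 other secretory lineage factors, 15 were tested, 9 above 0, with a median of 0.05, or -0.13 to 0.19 with 1 array left out. Sox9, which Paneth cells need in order to form, read 203 and 263 in conventionalized and 130 and 143 in germ-free cells, without overlap, and differed by 0.65 ± 0.68 (limma adjusted p = 0.999). Xbp1, the unfolded protein response factor that supports granule production, read 12843 and 12216 in conventionalized and 7245 and 10271 in germ-free cells, without overlap, and differed by 0.54 ± 0.58. Foxa1 and Foxa3, forkhead factors of secretory cells, differed by 0.15 ± 0.45 and 0.04 ± 0.59. Creb3l1, a secretory capacity factor, read 317 and 42.1 in conventionalized and 351 and 287 in germ-free cells, and its difference of -1.12 ± 0.62 came to -0.00034 without conventionalized replicate 2. Gfi1b, the tuft cell relative of Gfi1, lay under the filter with 19.6 and 58.5 in conventionalized and 97.6 and 39.2 in germ-free cells.

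Of 23 other intestinal factors, 17 were tested, 11 of them below 0, with 0 called and a median of -0.22, or -0.37 to -0.075 with 1 array left out. Gata6, a zinc finger factor of crypt epithelium, read 307 and 228 in conventionalized and 552 and 542 in germ-free cells, without overlap, and differed by -0.96 ± 0.49 (limma adjusted p = 0.970). Gata4, its relative of the upper small intestine, overlapped between the groups at 101 and 381 in conventionalized and 240 and 318 in germ-free cells. Hnf4a, a nuclear receptor of differentiated epithelium, differed by 0.08 ± 0.54, Vdr, the vitamin D receptor, by -0.38 ± 0.42, Klf5, a factor of proliferating crypt cells, by -0.12 ± 0.42, and Ascl2, a stem cell factor, by -0.22 ± 0.51. Hnf4g and Gata5, picked out after their values were seen, differed by -1.13 ± 0.42 and -1.64 ± 0.59 (limma adjusted p = 0.475 and 0.408). Gata5 was -0.55 without conventionalized replicate 2, and without conventionalized replicate 1 it was called at -2.73 (limma adjusted p = 0.018).

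Genes downstream of the regulators were read next. All 10 listed genes downstream of Spdef in goblet cells were tested, with 7 above 0, 0 called and a median of 0.24. Agr2, Muc2, Tff3, Fcgbp, Clca1 and Spink4 are goblet cell markers below as well, so both lists largely read the same values. With 1 array left out that median ran from 0.19 to 0.49, the latter without conventionalized replicate 2. With quantile normalization it was 0.11. Agr2, a protein disulfide isomerase needed to make mucin, read 9219 and 7489 in conventionalized and 3741 and 5346 in germ-free cells, and Spink4, a goblet cell protease inhibitor, read 14861 and 19303 in conventionalized and 5469 and 7971 in germ-free cells. Neither overlapped between the groups, and their differences were 0.89 ± 0.50 and 1.35 ± 0.58 (limma adjusted p = 0.999 and 0.763). Muc2, the main gut mucin, at -0.34 ± 0.49, and Tff3, at 0.17 ± 0.66, overlapped. Clca1, a secreted goblet cell protein picked out after its values were seen, lay the other way at 850 and 1438 in conventionalized and 2223 and 3424 in germ-free cells, a difference of -1.29 ± 0.42 (limma adjusted p = 0.237).

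Of 5 targets of Bhlha15, 2 passed the filter, Rab3d, a granule GTPase, at 0.18 ± 0.46 and Atp2c2, a calcium pump of the secretory pathway, at 0.43 ± 0.59, and Rab26, another granule GTPase, lay under it at 24.4 and 37.9 in conventionalized and 17.7 and 17.8 in germ-free cells. Of 9 targets of Cdx factors, 8 were tested, 7 below 0, with 0 called and a median of -0.71. With 1 array left out that median ran from -0.68 to -0.33. It was -0.47 without conventionalized replicate 2 and -0.33 without germ-free replicate 2. Lct, the lactase of the brush border, read 2729 and 4774 in conventionalized and 7693 and 10232 in germ-free cells, without overlap, and differed by -1.29 ± 0.49 (limma adjusted p = 0.543). Lct and a further Cdx target, Alpi, are enterocyte markers below as well. Mep1a, a brush border metalloprotease picked out after its values were seen, read 513 and 965 in conventionalized and 1804 and 2303 in germ-free cells and differed by -1.49 ± 0.42 (limma adjusted p = 0.076). Cdh17, an intestinal cadherin, differed by -0.03 ± 0.55. Among 8 targets of Neurog3, 3 were tested, with Neurod1 at -0.14 ± 0.52 and Insm1 at -0.97 ± 0.49, both factors of enteroendocrine differentiation, and Insm1 read 413 and 158 in conventionalized and 409 and 703 in germ-free cells. The Insm1 difference was -0.35 without conventionalized replicate 2 and -1.58 without conventionalized replicate 1.

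**Figure D3:**
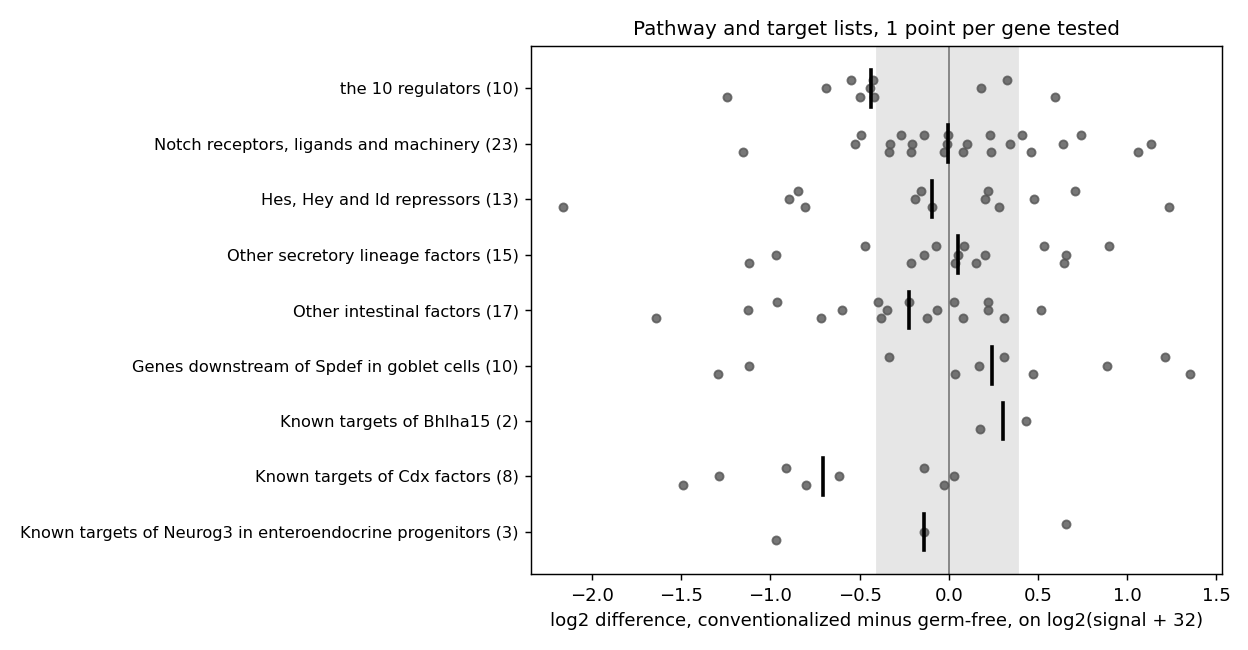
Log2 difference, conventionalized minus germ-free, of each tested gene of the 8 lists and of the 10 regulators, 1 point per gene, with the number tested in brackets and a bar at each median. The grey band spans the middle 50% of all probe sets tested, from -0.40 to 0.39. No point is a called gene, the Cdx target list has its median at -0.71, and the Notch list at -0.0043.

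Summed signals of Paneth, goblet and enteroendocrine markers did not overlap between the groups, while those of enterocyte and stem cell markers did. Sums of B and plasma cell, lymphoid, myeloid, smooth muscle and vascular markers did not overlap either. Among single probe sets tested, 31.1% did not overlap. A sum mostly follows its brightest probe sets, such as Lyz1 in the Paneth cell list, Fabp2 in the enterocyte list and the lysozyme Lyz2 in the myeloid list. The part of these cell types in the values above was not tested. Of 15 Paneth cell markers, 8 were tested and all 8 lay above 0. Their median was 1.91, or 1.34 to 2.45 with 1 array left out and 1.26 with quantile normalization. Mptx1, a secreted pentraxin, rose (2.74 ± 0.48, limma adjusted p = 2.5e-05), and the summed signal of the list was 282268 to 644296 in conventionalized and 66188 to 147644 in germ-free cells. Lyz1 differed by 2.00 ± 1.16 without a call, and by -0.12 with quantile normalization. Mptx1, Retnlb and Igha lost their calls with median centring and without the variance trend, at like differences. Goblet cell markers, beside Klf4 and Spdef, summed to 131457 to 221380 in conventionalized and 51595 to 93625 in germ-free cells. Of 9, 7 lay above 0, with a median of 0.47, or 0.43 to 0.57 with 1 array left out and 0.16 with quantile normalization. Most of these markers are also in the list downstream of Spdef, so this is no separate reading. Retnlb, a secreted resistin-like protein, was called higher at 3.53 ± 0.51 (limma adjusted p = 2.3e-08).

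Enteroendocrine markers, beside Neurog3, summed to 4720 to 5128 in conventionalized and 6764 to 9004 in germ-free cells, with 11 of 13 tested below 0, 0 of 13 called and a median of -0.63, or -0.82 to -0.43 with 1 array left out. Chga, a granule protein shared by most of these cells, read 591 and 522 in conventionalized and 667 and 427 in germ-free cells, and Nts, the neurotensin gene, picked out after its values were seen, differed by -1.68 ± 0.45 (limma adjusted p = 0.053). Nts became a called gene when the pseudocount was 8, when the fit held the brightest 25%, under a robust prior and under crossed replicate numbers, and its limma adjusted p ran from 0.0023 to 1.00 over all alternatives. Absorptive enterocyte markers, beside Hes1 and the Cdx genes, summed to 120730 to 275160 in conventionalized and 108198 to 195912 in germ-free cells, with 11 of 14 tested below 0 and a median of -0.51. With 1 array left out that median ran from -0.83 to -0.064. It was -0.11 without conventionalized replicate 1 and -0.064 without germ-free replicate 2. Apoc3, an apolipoprotein, fell (-2.16 ± 0.47, limma adjusted p = 0.0033) and lost its call with quantile normalization, median centring, the replicate block, no variance trend, and without conventionalized replicate 1 (-1.40) or germ-free replicate 2 (-1.82). Crypt base stem cell markers, beside Notch1, summed to 13457 to 25963 in conventionalized and 13522 to 19876 in germ-free cells, with 6 of 10 below 0, a median of -0.39 and 0 of 10 called. With 1 array left out that median ran from -0.52 to 0.17, the latter without conventionalized replicate 2. Lgr5, the stem cell receptor, read 106 and 103 in conventionalized and 227 and 205 in germ-free cells, and Olfm4, a secreted stem cell protein, 16246 and 7060 in conventionalized and 6522 and 12080 in germ-free cells. In none of these 5 lists was a marker at 0 on every array.

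Igha, of the B and plasma cell list, was the sole called gene of the other 8 marker lists (2.44 ± 0.44, limma adjusted p = 5.5e-05), and that list summed to 8342 to 10114 in conventionalized and 2754 to 2787 in germ-free cells. Its median was 0.45, or 0.17 to 0.73 with 1 array left out. Median differences were 0.039 for fibroblast, 0.030 for tuft cell and 0.12 for lymphoid markers, and with 1 array left out they ran from -0.091 to 0.12, from -0.21 to 0.40 and from -0.41 to 0.67. Myeloid markers had a median of 0.54, or 0.18 to 0.58 with 1 array left out, the lower end without germ-free replicate 2. They summed to 18048 to 20082 in conventionalized and 8661 to 9647 in germ-free cells. Most of that was Lyz2, at 15930 and 14914 in conventionalized and 5627 and 6963 in germ-free cells. Smooth muscle markers, 4 tested, had a median of -0.61 that ran from -1.11 to -0.11, and vascular markers, 3 tested, one of -0.61 that ran from -1.35 to -0.059. Exocrine pancreas, another tissue that uses Bhlha15, had 2 markers tested, with a median of -0.42 that ran from -1.27 to 0.43.

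**Figure D4:**
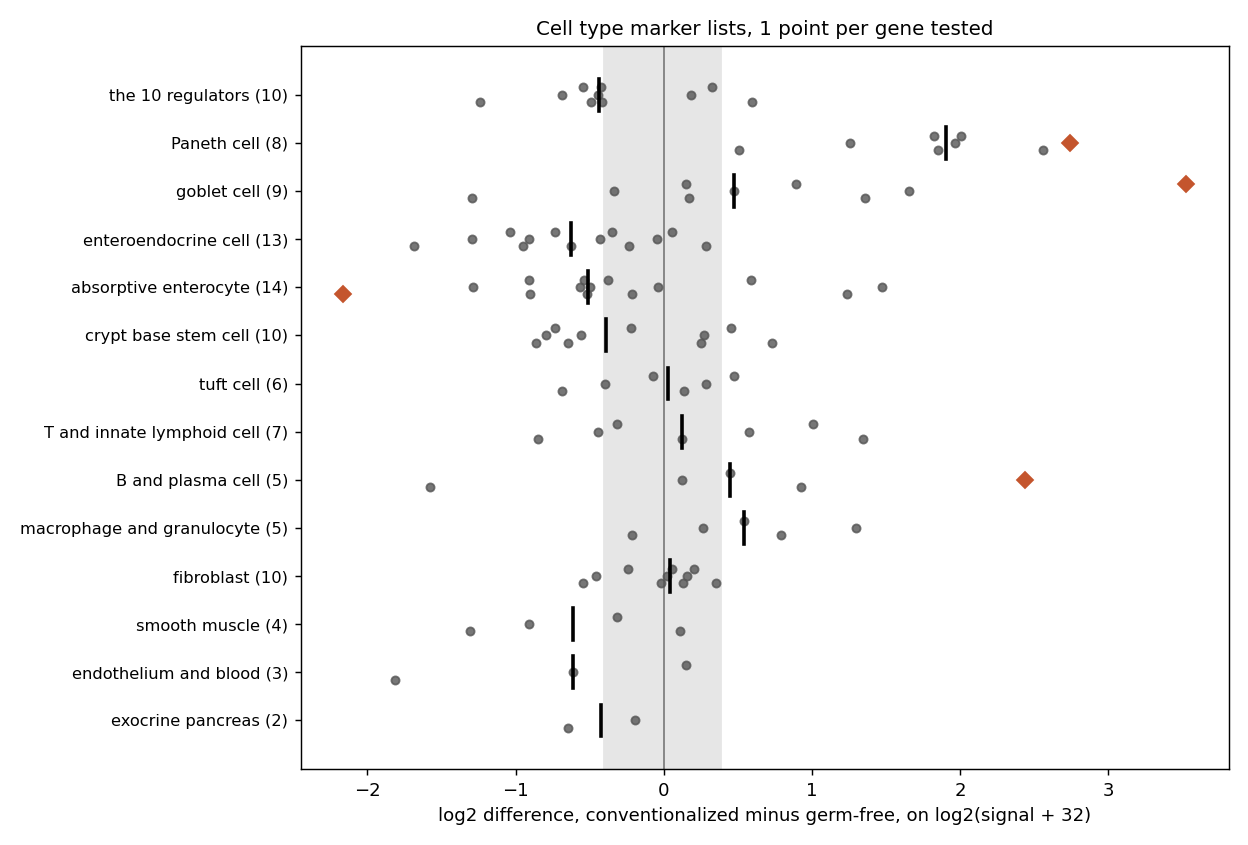
Log2 difference, conventionalized minus germ-free, of each tested gene of 13 cell type marker lists and of the 10 regulators, 1 point per gene, with a bar at each median and the middle 50% of all probe sets tested in grey. Diamonds are called genes. The 8 Paneth cell markers all lie above 0, while 7 of the 10 regulators and 49.8% of all probe sets tested lie below it. None of the 10 regulators is a called gene.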

How the data were processed

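Mouse430_2 arrays were scanned, the array type per the file headers. The authors deposited a linear signal intensity for every probe set and array, and which program made it is not stated in the labels or headers read here. Trimming 2% from each end gave a mean intensity of 250.0 on all 4 arrays, so the values were taken as scaled already and kept. Pooling and amplification are per the labels' protocols.

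A pseudocount of 32 was added before log2, the first power of 2 over the value 23 at the 20th percentile. It understates changes of dim probe sets. Of 45101 probe sets, 64 controls were left out and 22491 with a mean above 113.9 were tested with limma 3.58.1 in R 4.3.3 (lmFit, eBayes with a trend). Prior degrees of freedom came out infinite, beside 2 residual ones. The number of arrays limits the precision.

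Gene names came from the platform annotation of 2016, in which 34958 probe sets named 1 gene, 932 several and 9211 none. Of the 34958, 34754 matched a RefSeq gene table of GRCm38.p6, and 0 symbols were updated. Probe sets with several genes or none were not named. Only promoter windows carry coordinates.

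The 10 genes and all lists were chosen with earlier results of these data known. Beside the 10 genes, the rule named the called genes of each list or otherwise its 2 brightest tested genes, a set of direct partners and targets, and defining markers of each cell type. Sis, also in that set, was not analysed here. Any other gene is marked as picked after its values were seen. Hybridisation day, scan day, chip lot and scanner were common to all 4 arrays. Alternatives were other pseudocounts, filters, normalizations and variance models, probe sets of a gene averaged, the replicate number as a block, and leaving out each array.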

Additional observations from a re-analysis of the deposited data

How the results depend on the processing

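Across the alternatives, 138 recomputed differences of the 10 regulators kept their sign and their side of the threshold, 8 turned sign and 1 became called. The count of called probe sets, 75, moved to 33 with quantile normalization, 22 with median centring, which shifts the median of all probe sets from 0.0033 to -0.10 (3 of the 22 calls were higher, against 27 of 75), 0 without the limma variance trend (975 at an unadjusted p under 0.05), and 41 to 213 with 1 array left out. The replicate number as a replicate block gave 30 calls and 0 of the 10 regulators. The numbers share no stated source, and the duplicate differences of the groups correlated at -0.13 over probe sets. Crossing the numbers, chosen after seeing the data, gave 228 calls, among them 1 regulator, Klf4 (limma adjusted p = 0.035), and 3 genes of the pathway lists, Id2, Clca1 and Mep1a. Over all settings the Klf4 adjusted p ran from 0.035 to 1.00 and its difference from -1.49 to -0.63, the smaller being the mean of both probe sets. The pathway lists had 0 to 2 called genes with 1 array left out, the 2 being Id2 and Gata5 without conventionalized replicate 1, and 0 under the alternatives other than that and the crossed numbers. With 1 array left out, the median of the 10 regulators ran from -0.65 to -0.065. Of 292 list medians recomputed over all alternatives, 40 moved by more than the SD between duplicates. The log2 differences that took both signs with 1 array left out ran from -1.69 to 0.31 for Gfi1, -0.16 to 1.36 for Spdef, -0.38 to 1.03 for Hes1, -1.29 to 0.41 for Cdx1, -1.003 to 0.014 for Bhlha15, -0.088 to 0.45 for Notch1, -0.32 to 0.30 for the dimmer Klf4 probe set and -0.52 to 0.80 for the dimmer Notch1 probe set. Among other named genes they ran from -0.36 to 0.33 for Psenen, -0.60 to 0.072 for Aph1a, -0.49 to 0.79 for Foxa1, -0.37 to 0.53 for Hnf4a, -0.23 to 0.57 for Tff3, -0.062 to 0.41 for Rab3d, -0.011 to 0.88 for Atp2c2, -0.40 to 0.35 for Cdh17, -0.46 to 0.18 for Neurod1, -0.73 to 0.063 for Muc2, -0.25 to 0.36 for Chga, -0.59 to 0.11 for Chgb, -0.33 to 0.87 for Olfm4, -0.083 to 0.24 for Dll1, -0.56 to 1.02 for Dll4, -0.70 to 0.42 for Rbpj, -0.52 to 0.59 for Foxa3, -1.21 to 0.42 for Gata4 and -0.51 to 0.27 for Klf5. Quantile normalization turned the dimmer Klf4 probe set to 0.066, Hnf4a to -0.074, Tff3 to -0.32, Lyz1 to -0.12, Fabp2 to -0.12 and Foxa3 to -0.080, and median centring turned Hnf4a to -0.022, Chga to -0.050, Dll1 to -0.026 and Foxa3 to -0.068. Leaving out an array also leaves 1 array in a group, whose spread is then taken from the other group, and beyond that the cause of these turns was not tested.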
